A study of Mus musculus with 14 samples.

Results

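Myc and 34 genes of ribosome production were followed in 3 mouse tumour cell lines after treatment with either of 2 agonists, one for RIG-I and one a control. The rule was a list of 35 gene names, and they were found among the 34866 gene identifiers of the tables by Ensembl identifier without its version. All 35 were matched, all are protein-coding, and all passed the filter on low counts in every line. By role they are Myc itself, 4 genes of RNA polymerase I transcription, 3 nucleolar chaperones and scaffolds, 5 proteins of small nucleolar ribonucleoproteins (snoRNPs), 9 small-subunit factors, 11 large-subunit factors and 2 metabolic enzymes often used as Myc target genes.

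CT26 is a colorectal carcinoma line from BALB/c mice, E0771 a mammary carcinoma line from C57BL/6 mice, and MC38 a colon adenocarcinoma line from C57BL/6 mice. In each line 1 group received the RIG-I agonist and the other the control agonist, both at 0.5 ug/ml for 24 h after plating 100000 cells per well. CT26 had 3 libraries per agonist, and E0771 and MC38 had 2 each, 14 in all. CT26 and E0771 were cultured in RPMI and MC38 in DMEM, so line, mouse strain, culture medium and any separate library preparation cannot be told apart in comparisons between lines. RIG-I detects viral RNA in the cytosol and switches on interferon genes, and an agonist triggers it without a virus. Untreated cells were not analysed here, and each fold change is set against control-agonist libraries.

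Myc is a transcription factor that pairs with Max and binds the E-box CACGTG. It is known to raise transcription of ribosomal RNA by RNA polymerase I and expression of the factors that cut, modify, fold and export ribosomal RNA. In the nucleolus the precursor of ribosomal RNA is made, guide snoRNPs modify it, the small-subunit processome and large-subunit assembly factors process it, and ribosomal proteins join. Interferons are known to slow growth and translation in many cells.

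The promoter sequences show how many of these genes carry the letters that Myc and Max bind. RefSeq windows on GRCm38.p6, 250 bases before to 50 after a gene's start, were matched for 29 of the 35 genes; Myc, Npm1, Fbl, Bop1, Rrp12 and Rrs1 were not in the table. CACGTG, which reads the same on both strands, was the only motif searched. It was found in 7 of the 29 genes (24.1%), against 8.09% of 27025 genes in the table and 11.7% of the 9281 genes that were also tested in MC38. The 7 sites are given 5′ to 3′ with the motif in capitals and up to 12 flanking bases on each side, cut where the window ends. The motif starts 60 bases before the start in Nop2. In the other 6 it starts after it, at bases 3 (Pes1), 18 (Wdr43), 25 (Tsr1), 29 (Ltv1), 38 (Utp20) and 41 (Mybbp1a).
Ltv1: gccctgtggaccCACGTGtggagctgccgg
Mybbp1a: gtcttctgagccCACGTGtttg
Nop2: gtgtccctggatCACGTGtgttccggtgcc
Pes1: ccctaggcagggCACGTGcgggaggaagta
Tsr1: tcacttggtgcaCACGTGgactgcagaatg
Utp20: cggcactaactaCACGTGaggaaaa
Wdr43: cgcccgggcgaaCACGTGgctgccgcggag
In order of this list the sites lie at chr10:13193092-13193121 (minus strand), chr11:72441355-72441376, chr6:125131811-125131840, chr11:3963965-3963994, chr11:74898092-74898121, chr10:88826765-88826789 (minus strand) and chr17:71616220-71616249, on the plus strand unless marked. In MC38 7 of 7 genes with the motif and 20 of 22 without it were called higher with the RIG-I agonist. In CT26 2 of 7 with it (Nop2, Wdr43) and 11 of 22 without it were. The 250 bases before the start are shown for Nop2, which holds the motif, and for Rrp9, which does not and yet had the second-largest fold change in MC38 after Myc.
Nop2: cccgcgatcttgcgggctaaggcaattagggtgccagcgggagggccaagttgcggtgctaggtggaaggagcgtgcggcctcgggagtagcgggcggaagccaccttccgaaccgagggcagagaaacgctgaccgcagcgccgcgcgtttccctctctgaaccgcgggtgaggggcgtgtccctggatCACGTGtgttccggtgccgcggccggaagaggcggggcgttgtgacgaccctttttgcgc
Rrp9: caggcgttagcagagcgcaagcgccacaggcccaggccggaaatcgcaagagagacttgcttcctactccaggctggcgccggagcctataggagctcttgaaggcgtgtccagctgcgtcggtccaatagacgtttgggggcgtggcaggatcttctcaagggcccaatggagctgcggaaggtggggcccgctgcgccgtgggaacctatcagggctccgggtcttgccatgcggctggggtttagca
These stretches are chr6:125131633-125131882 and chr9:106477059-106477308, both on the plus strand, and the Rrp9 start as RefSeq places it lies within the annotated gene given further on. The presence or absence of these letters is a description of the window only.

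Total counts ranged over 32826742 to 40564102 for CT26 libraries, over 12413347 to 13399247 for E0771 and over 12347361 to 18964563 for MC38. The biological coefficient of variation was 0.102 among CT26 libraries, 0.202 among E0771 libraries and 0.0304 among MC38 libraries, so the same fold change passed the test most easily in MC38 and least easily in E0771. Nothing in the labels says that replicates are separate cultures. The p-values therefore cover the library-to-library spread alone, and part or all of it may be technical. Isg15, an interferon-induced gene, was higher with the RIG-I agonist in each line, at 889.8 ± 32.4 against 200 ± 22.3 CPM in CT26, 441 ± 0.523 against 15.3 ± 7.21 CPM in E0771 and 376 ± 16.2 against 115 ± 1.93 CPM in MC38 (RIG-I against control agonist, mean ± SD). Of 7 epithelial markers, 2 passed the low-count filter in CT26 (Krt8, Krt18), 1 in E0771 (Krt8) and 0 in MC38, while Vim and the other 4 mesenchymal markers passed in each line. Krt8 was low in CT26, at 0.291 and 0.202 CPM with RIG-I and control agonist, against 222 and 250.1 CPM in E0771. Of 4 colon markers 1 (Cdx2, at 0.275 and 0.256 CPM) passed in CT26 and 0 in MC38. Endothelial markers passed in each line: 2 of 3 in CT26 (Pecam1, Kdr), 1 in E0771 (Pecam1) and 2 in MC38 (Pecam1, Cdh5). Kdr was called higher in CT26 with the RIG-I agonist, at 0.983 against 0.00868 CPM. Of 5 mammary markers 1 passed in E0771 (Esr1) and 2 in each of the other lines (Esr1, Gata3), so they did not set the mammary line apart, and of 6 leukocyte markers 0 passed in any line. Epcam was at 0 in all libraries of CT26 and MC38, and Krt18 in all of E0771 and MC38. In bulk libraries, a change in the share of cells and a change in RNA per cell cannot be told apart.

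With the RIG-I agonist, 14 of the 35 genes rose and 2 fell in CT26, 33 rose and 1 fell in MC38, and 0 passed the test in E0771 (edgeR quasi-likelihood test, adjusted p under 0.05 over all genes tested). Over all genes tested the background was 19.8% called higher and 18.6% called lower in CT26, 18.9% and 16.9% in MC38, and 1.53% and 0.0256% in E0771. Among genes at or above the mean level of the lowest of the 35, the shares called higher and lower were 16% and 27.2% in CT26, 31.3% and 23.6% in MC38, and 2.2% and 0.0523% in E0771. The 35 genes had a median log2 fold change of 0.11 (all genes tested 0) for CT26, 0.14 (all genes -0.01) for E0771 and 0.24 (all genes 0) for MC38. In E0771, 2 of the 35 had an unadjusted p under 0.05 (10.6% of all genes tested), and DESeq2 called 1 higher and 0 lower. Of 13207 genes in all, DESeq2 called 370 higher and 45 lower there. Every RIG-I agonist library was above every control library for 18 of the 35 genes in CT26, 14 in E0771 and 34 in MC38, where 26.4%, 20.4% and 33.4% of all genes tested did the same. Every RIG-I agonist library was below for 3, 2 and 1, where 25%, 20% and 33.8% of all genes did. Apart from Myc, the genes called higher had folds of 1.13 to 1.26 in CT26 and 1.08 to 1.39 in MC38. All 14 genes higher in CT26 were also higher in MC38, which is 100% of the CT26 list and 42.4% of the MC38 list. Over all genes tested in both lines, 43% of those higher in CT26 were also higher in MC38, and 42.5% the other way round. With 33 of the 35 called in MC38, the overlap leaves little room to be smaller. The estimate was positive in all 3 lines for 24 genes and negative in all 3 for 1 gene, Cad. The mesenchymal markers went the other way: 4 of 5 fell in CT26 (Vim by 0.18 on the log2 scale) and 5 of 5 in MC38 (Vim by 0.32), with 0 of 5 called in E0771. Their summed level was 3195 to 3544 CPM with the RIG-I agonist against 3733 to 3866 CPM with the control agonist in CT26, 2220.4 to 2443 against 3152 to 3321 CPM in E0771 and 1683 to 1729 against 2127 to 2153 CPM in MC38. Vim makes up most of these sums, at 3127 against 3547 CPM in CT26, 2135 against 2969.8 in E0771 and 1605 against 2003 in MC38. The fall was not particular to mesenchymal markers, as the epithelial marker Krt18 fell in CT26 too (-0.48, SE 0.09, adjusted p = 0.000688). Krt8 was not called there (0.53, SE 0.43). Whether these markers have a part in the values of the 35 genes was not tested.

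**Figure D1:**
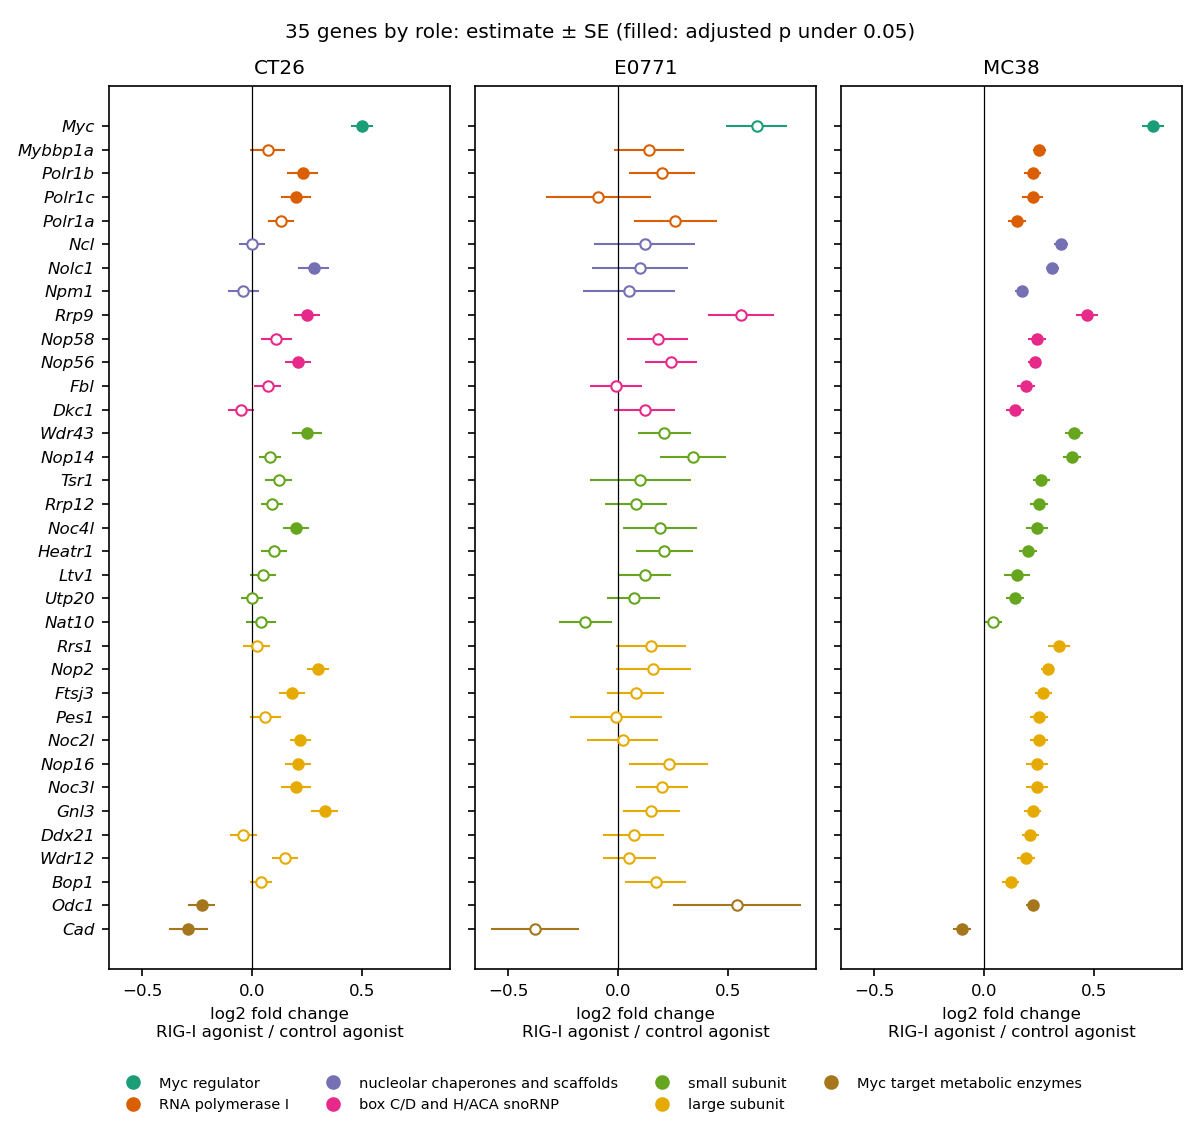
Log2 fold change, RIG-I agonist over control agonist, of each of the 35 genes (rows, coloured by role) in CT26, E0771 and MC38, with bars of 1 SE; filled points passed an adjusted p of 0.05. Myc lies farthest right in every line, 33 points are filled to the right of 0 in MC38 and 14 in CT26, and none is filled in E0771, where the bars are widest (SE 0.12 to 0.29).

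Myc lies on chromosome 15 (61985391 to 61990374, plus strand, GRCm38) and had the largest estimate of the 35 in each line. In CT26 it was at 163, 175 and 173 CPM (counts scaled to library size, as counts per mega-count) with the RIG-I agonist, against 126, 119 and 116 CPM with the control agonist. In MC38 it was at 153 and 147 CPM with the RIG-I agonist, against 86.4 and 90.3 CPM with the control agonist. In E0771 it was at 692 and 715 CPM with the RIG-I agonist, against 448 and 459.7 CPM with the control agonist. Every RIG-I agonist library was above every control library of its line, and the groups did not overlap anywhere. The log2 fold change was 0.50 (SE 0.05, adjusted p = 5.53e-06) in CT26 and 0.77 (SE 0.05, adjusted p = 1.21e-11) in MC38. In E0771 it was 0.63 (SE 0.14), which missed the threshold with edgeR within the line (adjusted p = 0.164) and passed it with DESeq2 (adjusted p = 0.00306) and in 1 edgeR fit of all 14 libraries (adjusted p = 7.12e-05).

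**Figure D2:**
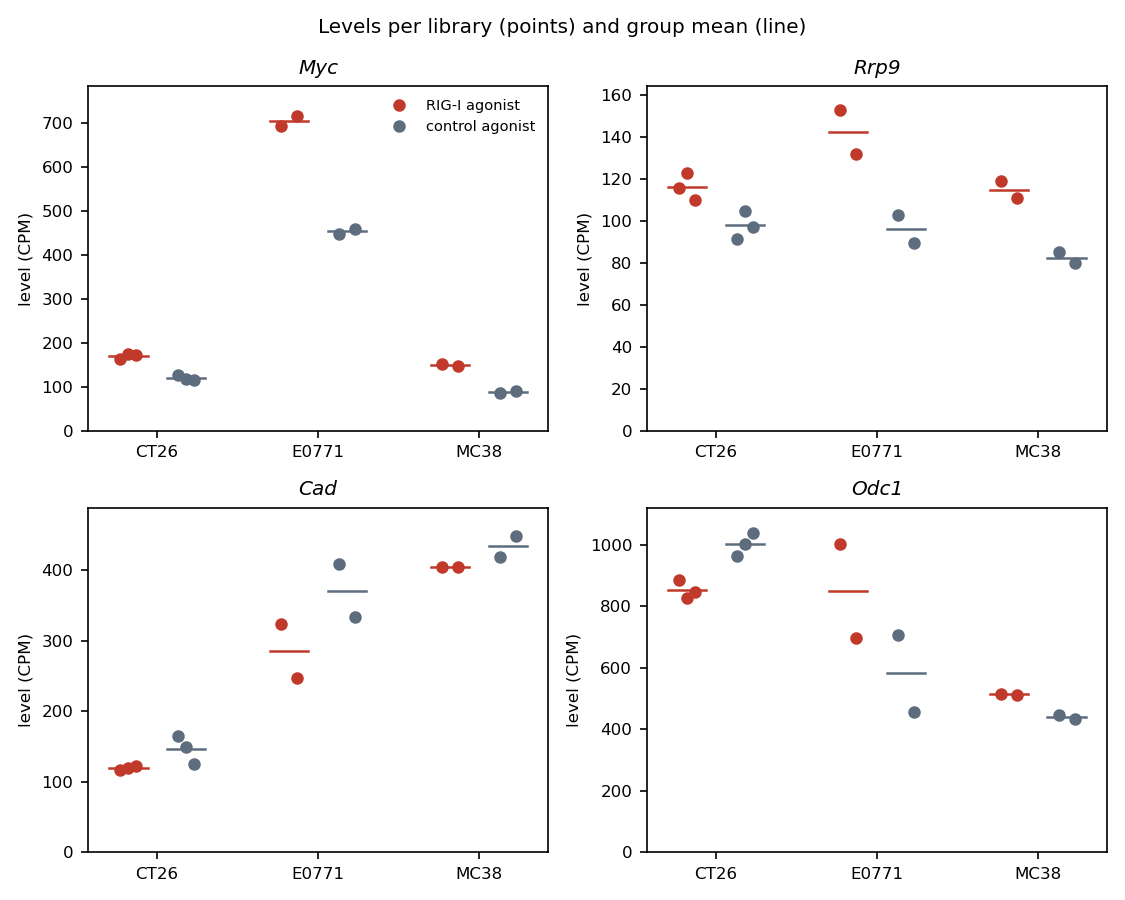
Level in CPM of Myc, Rrp9, Cad and Odc1 in each library (points, with the group mean as a line), RIG-I agonist left of control agonist in each of the 3 lines. Myc and Rrp9 lie higher and Cad lower with the RIG-I agonist in every line, while Odc1 lies lower in CT26 (826 to 886 against 964 to 1038 CPM) and higher in MC38 (513 and 515 against 433 and 448 CPM).

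Among the 4 genes of RNA polymerase I transcription, 2 rose in CT26, 4 in MC38 and 0 passed in E0771. Polr1b, the second-largest subunit of the enzyme, averaged 52 ± 2.11 against 44.4 ± 4.3 CPM in CT26 (adjusted p = 0.0246) and 152 ± 0.462 against 131 ± 0.504 CPM in MC38 (adjusted p = 0.000246), RIG-I against control agonist. Polr1c, a subunit shared with RNA polymerase III, rose by 0.20 (SE 0.07) on the log2 scale in CT26 and by 0.22 (SE 0.05) in MC38. Polr1a, the largest subunit, and Mybbp1a, a nucleolar protein that binds Myb and regulates ribosomal RNA gene transcription, rose in MC38 by 0.15 (SE 0.04) and 0.25 (SE 0.03). In CT26 those 2 had estimates of 0.13 (adjusted p = 0.0929) and 0.07 (adjusted p = 0.542). In E0771 the 4 estimates were between -0.09 and 0.26.

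Of the 3 nucleolar chaperones and scaffolds, 1 rose in CT26, 3 in MC38 and 0 passed in E0771. Ncl, nucleolin, which coats nascent ribosomal RNA, lies on chromosome 1 (86344719 to 86359400, minus strand). It was at 2229 and 2308 CPM in MC38 with the RIG-I agonist and at 1798 and 1769 CPM with the control agonist, a rise of 0.35 (SE 0.03, adjusted p = 3.85e-08) on the log2 scale. In CT26 it was at 2682, 2699 and 2668 CPM with the RIG-I agonist and at 2537, 2718 and 2802 CPM with the control agonist. These CT26 groups overlapped, and the estimate was 0.00 (SE 0.06). Npm1, nucleophosmin, a histone and ribosome chaperone, rose in MC38 (0.17, SE 0.03, adjusted p = 0.00053) and had an estimate of -0.04 (SE 0.07, adjusted p = 0.703) in CT26. Nolc1, which binds snoRNPs and links them to the nucleolus, rose in both: in CT26 to 474, 420.4 and 433 CPM against 345, 385 and 362 CPM with the control agonist (0.28, SE 0.07), and in MC38 to 377 and 378 CPM against 306 and 302 CPM (0.31, SE 0.03). In E0771 the 3 estimates lay between 0.05 and 0.12.

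Of the 5 snoRNP proteins, 2 rose in CT26, 5 in MC38 and 0 passed in E0771. Rrp9, a specific protein of the U3 snoRNP, which is needed for the first cuts of the precursor, lies on chromosome 9 (106475963 to 106485424, plus strand). It was at 119 and 111 CPM with the RIG-I agonist in MC38, against 85.1 and 79.9 CPM with the control agonist. In E0771 it was at 153 and 132 CPM with the RIG-I agonist, against 103 and 89.8 CPM with the control agonist. In CT26 it was at 116, 123 and 110.2 CPM with the RIG-I agonist, against 91.5, 105 and 97.4 CPM with the control agonist. The groups did not overlap in any line, and the log2 estimates were 0.47 (SE 0.05, adjusted p = 1.91e-07) in MC38, 0.56 (SE 0.15, adjusted p = 0.261) in E0771 and 0.25 (SE 0.06, adjusted p = 0.00763) in CT26. Rrp9 overlaps Parp3 on the opposite strand, and whether counting used strand is not given in the sources used here. Parp3, a poly(ADP-ribose) polymerase, had an estimate of 0.97 in CT26 (called), 0.24 in MC38 (called) and 0.70 in E0771 (not called), and its part in the Rrp9 values was not tested.

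Of Nop56 and Nop58, core proteins of box C/D snoRNPs, only Nop56 was called in CT26, and the 2 genes were not tested against each other. Nop56 rose in CT26 (781 ± 16.1 against 674 ± 33.9 CPM, adjusted p = 0.0185) and MC38 (502 ± 6.33 against 428 ± 1.71 CPM, adjusted p = 1.09e-05), RIG-I against control agonist. In E0771 it was at 349.7 and 361 CPM with the RIG-I agonist and at 297 and 302 CPM with the control agonist, groups that did not overlap (0.24, SE 0.12, adjusted p = 0.6). Nop58 rose in MC38 (0.24, SE 0.04) and had an estimate of 0.11 (SE 0.07, adjusted p = 0.257) in CT26. Fbl, fibrillarin, the RNA methyltransferase of these particles, and Dkc1, the pseudouridine synthase of box H/ACA snoRNPs, rose in MC38 by 0.19 and 0.14 (SE 0.04 each). In CT26 their estimates were 0.07 (SE 0.06) and -0.05 (SE 0.06).

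Among the 9 small-subunit factors, 2 rose in CT26 and 8 in MC38, with 0 passing in E0771. Wdr43, a processome protein known in yeast as Utp5, was at 320, 329.7 and 322 CPM in CT26 with the RIG-I agonist, against 249.5, 278 and 287 CPM with the control agonist. In MC38 it was at 307 and 323 CPM with the RIG-I agonist, against 239.7 and 236 CPM with the control agonist. It rose by 0.25 (SE 0.07, adjusted p = 0.00772) in CT26 and 0.41 (SE 0.04, adjusted p = 1.52e-08) in MC38 on the log2 scale. Nop14, another processome protein, was at 211 and 211 CPM in MC38 with the RIG-I agonist, against 156 and 165 CPM with the control agonist (0.40, SE 0.04, adjusted p = 6.91e-08). In E0771 it was at 185 and 164 CPM with the RIG-I agonist, against 147 and 128 CPM with the control agonist (0.34, SE 0.15, adjusted p = 0.505). In CT26 its groups overlapped (0.08, SE 0.05, adjusted p = 0.227). Noc4l, which works with Nop14, rose in CT26 and MC38 by 0.20 (SE 0.06) and 0.24 (SE 0.05). Rrp12, Utp20, Heatr1, Tsr1 and Ltv1, which act from early processome assembly to late cytoplasmic maturation, rose in MC38 by 0.14 to 0.26 and had estimates of 0 to 0.12 in CT26, none of them called. Nat10, which acetylates ribosomal RNA, was the 1 gene of the list called in neither direction in MC38 (0.04, SE 0.04, adjusted p = 0.487).

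Of the 11 large-subunit factors, 6 rose in CT26 and 11 in MC38, with 0 passing in E0771. In CT26 Gnl3, nucleostemin, a nucleolar GTPase of dividing cells, was at 253, 240 and 242 CPM with the RIG-I agonist, against 181, 194 and 209 CPM with the control agonist (0.33, SE 0.06, adjusted p = 0.000848). Nop2, which methylates large-subunit ribosomal RNA, was at 249, 247 and 254 CPM there with the RIG-I agonist, against 206, 207 and 196 CPM with the control agonist (0.30, SE 0.05, adjusted p = 0.000657). In MC38 Gnl3 rose by 0.22 (SE 0.04) and Nop2 by 0.29 (SE 0.03). Nop16, Ftsj3, Noc2l and Noc3l, which act in nucleolar steps of large-subunit assembly, rose by 0.18 to 0.22 in CT26 and by 0.24 to 0.27 in MC38. Rrs1, which brings the 5S particle to the large subunit, was at 117 and 112 CPM in MC38 with the RIG-I agonist, against 93.4 and 87.5 CPM with the control agonist (0.34, SE 0.05, adjusted p = 9.31e-06). In CT26 its groups overlapped (0.02, SE 0.06). The Bop1, Pes1 and Wdr12 proteins form 1 complex: in MC38 they rose by 0.12, 0.25 and 0.19, and in CT26 none was called, with estimates of 0.04, 0.06 and 0.15. Ddx21, an RNA helicase that couples RNA polymerase I transcription to processing, rose in MC38 (0.21, SE 0.04) and had an estimate of -0.04 (SE 0.06, adjusted p = 0.591) in CT26.

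Of the 2 metabolic enzymes, both fell in CT26, and 1 rose and 1 fell in MC38. Cad, which carries out the first steps of pyrimidine synthesis and lies on chromosome 5 (31054780 to 31078479, plus strand), was at 117, 119 and 122 CPM in CT26 with the RIG-I agonist, against 165, 149 and 125 CPM with the control agonist. In MC38 it was at 404 and 405 CPM with the RIG-I agonist, against 419 and 449 CPM with the control agonist, and in E0771 at 324 and 247 CPM against 409 and 333 CPM. No RIG-I agonist library reached the lowest control library of its line. Cad fell by 0.29 (SE 0.09, adjusted p = 0.0222) on the log2 scale in CT26 and by 0.10 (SE 0.04, adjusted p = 0.0365) in MC38, with an estimate of -0.38 (SE 0.20, adjusted p = 0.61) in E0771. The CT26 call was lost with library sizes alone (adjusted p = 0.0667), without control replicate 1 (-0.20, adjusted p = 0.0619), without control replicate 2 (adjusted p = 0.0851) and without RIG-I agonist replicate 1 or 2 (adjusted p = 0.0753 and 0.0708). The MC38 call was lost in 1 fit of all 14 libraries (adjusted p = 0.778), with DESeq2 (adjusted p = 0.241), with no low-count filter (adjusted p = 0.08), without control replicate 2 (-0.05, adjusted p = 0.472) and without RIG-I agonist replicate 1 or 2 (adjusted p = 0.104 and 0.0864).

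Odc1, ornithine decarboxylase, the rate-limiting enzyme of polyamine synthesis, lies on chromosome 12 (17544794 to 17551505, plus strand). It was at 886, 826 and 848 CPM in CT26 with the RIG-I agonist, against 964, 1003 and 1038 CPM with the control agonist. In MC38 it was at 515 and 513 CPM with the RIG-I agonist, against 448 and 433 CPM with the control agonist. In E0771 it was at 1002 and 697 CPM with the RIG-I agonist and at 707 and 458 CPM with the control agonist, and those groups overlapped. Odc1 fell by 0.23 (SE 0.06, adjusted p = 0.0109) on the log2 scale in CT26 and rose by 0.22 (SE 0.03, adjusted p = 2.06e-05) in MC38, with an estimate of 0.54 (SE 0.29, adjusted p = 0.621) in E0771. The CT26 call was lost without RIG-I agonist replicate 2 (adjusted p = 0.0609), and both calls were lost in 1 fit of all 14 libraries (adjusted p = 0.182 in CT26 and 0.547 in MC38).

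Whether the response differed between lines was tested directly with interaction terms, fitted by edgeR over the 14 libraries together. None of the 35 genes passed in any of the 3 contrasts, where 3.8% (CT26 minus MC38), 3.88% (CT26 minus E0771) and 2.11% (E0771 minus MC38) of 14657 genes were called. An unadjusted p under 0.05 was reached by 7, 3 and 0 of the 35 (18.8%, 16.7% and 12.6% of all genes), and DESeq2 called 3, 1 and 0. A fit of only the 2 lines compared called 9, 0 and 0. How many of all genes DESeq2 and this fit called was not counted, so these counts have no background beside them. The estimate was lower in CT26 than in MC38 for 34 of the 35, with a median difference of -0.18 (all genes -0.04). The smallest adjusted p-values of that contrast belonged to Ddx21 (-0.31, SE 0.09, adjusted p = 0.0814), Nop14 (-0.36, SE 0.11, 0.0884), Myc (-0.31, SE 0.10, 0.089), Rrs1 (-0.37, SE 0.13, 0.142), Ncl (-0.40, SE 0.16, 0.209) and Odc1 (-0.50, SE 0.23, 0.253). For CT26 minus E0771 they belonged to Odc1 (-0.81, SE 0.23, 0.072), Rrp9 (-0.36, SE 0.13, 0.168), Nop14 (-0.30, SE 0.11, 0.176), Dkc1 (-0.21, SE 0.11, 0.382), Myc (-0.17, SE 0.09, 0.404) and Ddx21 (-0.15, SE 0.09, 0.436). For E0771 minus MC38 the first 6 were Fbl, Noc2l, Wdr43, Nat10, Ftsj3 and Ddx21, with differences of -0.24 to -0.15 and adjusted p-values of 0.466 to 0.586. DESeq2 called Ddx21, Nop14 and Myc for CT26 minus MC38 and Odc1 for CT26 minus E0771. The counts of 14, 33 and 0 genes called higher are counts within lines, and whether a line difference was called for some of the 35 genes depended on the fit.

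With the control agonist alone, Myc differed between all 3 lines. In the fit of all 14 libraries Myc averaged 441 ± 10.4 CPM in E0771 (SD, n = 2), 127 ± 4.87 CPM in CT26 (n = 3) and 86.5 ± 2.61 CPM in MC38 (n = 2), and each neighbouring pair in that order differed. The log2 difference was -1.80 (SE 0.07, adjusted p = 4.7e-11) for CT26 minus E0771, 2.35 (SE 0.08, adjusted p = 4.38e-11) for E0771 minus MC38 and 0.55 (SE 0.07, adjusted p = 7.89e-06) for CT26 minus MC38. Per kilobase of annotated exon, Myc ranked 3 of 35 in E0771 (167 CPM per kb), but 19 of 35 in CT26 (44.3) and 22 of 35 in MC38 (32.5). Over the list, E0771 minus MC38 had 12 of the 35 called higher and 9 lower, with a median of 0.04, where 31.5% of all genes tested were called higher, 32.6% lower and 64.1% in either direction. CT26 minus MC38 had 15 higher and 12 lower, where the background was 37.8% higher, 35.8% lower and 73.6% in all. CT26 minus E0771 had 12 higher and 13 lower, where it was 37.2% higher, 33.1% lower and 70.3% in all. These shares were near the background. CT26 had the least Polr1b (46.7 ± 4.51 CPM, against 116 ± 11.3 in E0771 and 128 ± 0.307 in MC38) and the least Cad (154 ± 21.5, against 361 ± 50.1 in E0771 and 425 ± 20.7 in MC38). It had the most Odc1 (1053 ± 39.8, against 566 ± 169 in E0771 and 432 ± 11.1 in MC38) and the most Nop56 (709 ± 36.1, against 292 ± 4.67 in E0771 and 419.6 ± 2.28 in MC38). Between E0771 and MC38 the test did not call Polr1b (adjusted p = 0.223), Cad (0.154) and Odc1 (0.0676).

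**Figure D3:**
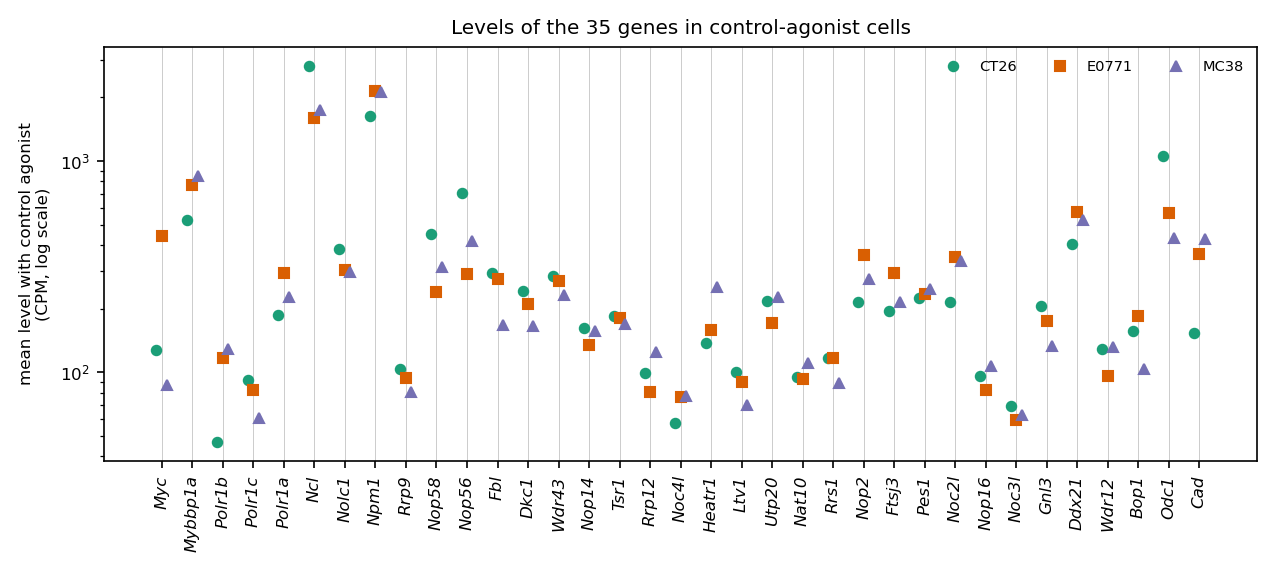
Mean level in CPM (log axis) of the 35 genes with the control agonist in CT26 (circles), E0771 (squares) and MC38 (triangles), in the fit of all 14 libraries. Myc in E0771 (441 CPM) stands above CT26 (127) and MC38 (86.5), while Polr1b and Cad are lowest and Odc1 and Nop56 highest in CT26.

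The rest of the ribosome assembly pathway was counted from lists of other genes, with members of the 35 left out. Of 57 large-subunit assembly genes, 31 rose (54.4%) and 2 fell in CT26 and 46 rose (80.7%) and 0 fell in MC38 (median log2 fold change 0.20 and 0.23). Of 42 small-subunit processome genes, 15 rose in CT26 (35.7%) and 35 in MC38 (83.3%), and 0 fell in either (medians 0.13 and 0.22). Of all genes tested, 19.8% rose in CT26 and 18.9% in MC38. Among genes at or above the level of the lowest of the 35, 16% and 31.3% rose. Of the genes higher in CT26, 27 of 31 large-subunit and 14 of 15 small-subunit genes were also higher in MC38. As 80.7% and 83.3% of the lists rose in MC38, overlaps near those shares would arise without any link between the lines. Ddx24, an RNA helicase, led the large-subunit list, at 197 against 132 CPM in CT26 (0.58, SE 0.06, adjusted p = 5.05e-06) and 298 against 178 CPM in MC38 (0.74, SE 0.04, adjusted p = 1.04e-12), RIG-I against control agonist. Sdad1, known in yeast as Sda1, rose by 0.41 (SE 0.05) and 0.54 (SE 0.04), and Spata5, an ATPase that releases factors from the large subunit, by 0.57 (SE 0.07) and 0.41 (SE 0.05), in CT26 and MC38. Gnl3l, a relative of Gnl3, fell in CT26 (-0.37, SE 0.06, adjusted p = 0.000167). Fcf1, a nuclease-like processome protein, rose by 0.32 (SE 0.06) in CT26 and 0.27 (SE 0.08) in MC38.

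In E0771 none of the 57 large-subunit and 42 small-subunit genes passed with edgeR. There 7 and 0 had an unadjusted p under 0.05 (10.6% of all genes tested), and 52 and 38 had positive estimates (medians 0.17 and 0.10). DESeq2 called 2 and 0 of them higher, and 370 of 13207 genes in all. Ddx24 was at 431 and 359.7 CPM with the RIG-I agonist in E0771, against 250.4 and 215 CPM with the control agonist (0.77, SE 0.16, adjusted p = 0.159).

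Smaller lists of the pathway were counted the same way. Of 18 other RNA polymerase I genes, 7 rose (38.9%) and 0 fell in CT26, and 5 rose (27.8%) and 1 fell in MC38. The background was 19.8% of all genes tested in CT26 and 18.9% in MC38. At or above the level of the lowest ribosome-production gene, it was 16% and 31.3%. The MC38 share thus lay between both backgrounds. The lines shared 0 of the rises, which with so few genes called says little about a difference between them. Taf1a, a subunit of the promoter selectivity factor, led in CT26 (28.8 against 20.9 CPM, 0.46, SE 0.08), and Tcof1, the nucleolar protein treacle, was called in MC38 (287 against 224 CPM, 0.36, SE 0.04) with an estimate of -0.02 (SE 0.08) in CT26. Of 14 exosome and exonuclease genes, 5 rose in CT26 (35.7%) and 7 in MC38 (50%), all 5 of the CT26 genes among them. Xrn2, a nuclear 5′ to 3′ exonuclease, rose by 0.16 (SE 0.06) and 0.42 (SE 0.03). Of 14 snoRNP partners, 3 rose (21.4%) and 2 fell (14.3%) in CT26, near the 19.8% and 18.6% of all genes. In MC38 8 rose (57.1%) and 0 fell. Nufip1, a snoRNP assembly factor, rose in both (0.44, SE 0.07, and 0.32, SE 0.07). In E0771 0 genes of these 3 lists passed with edgeR or DESeq2, and 2, 0 and 1 had an unadjusted p under 0.05.

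In the Myc network list, Max, the partner of Myc, rose in CT26 (50.2 against 43.3 CPM, 0.21, SE 0.06, adjusted p = 0.00918) and MC38 (85.4 against 62.9 CPM, 0.44, SE 0.05, adjusted p = 6.02e-07). Zbtb17 had the largest rise of the list in CT26 (24 against 16.5 CPM, 0.54, SE 0.07, adjusted p = 5.72e-05). Mxi1 and Mxd4, which compete with Myc for Max, fell in CT26 (-0.55, SE 0.08, and -0.40, SE 0.07), while in MC38 their estimates were -0.01 and -0.08. Mxd1, of the same family of Max-binding competitors, rose in CT26 (0.49, SE 0.14, adjusted p = 0.0133), so these competitors did not move one way. Its estimate was 0.66 (SE 0.25, adjusted p = 0.453) in E0771 and 0.20 (SE 0.21, adjusted p = 0.485) in MC38. Trrap, a large scaffold of histone acetyltransferases that Myc recruits, fell in CT26 (-0.23, SE 0.08, adjusted p = 0.0487) and MC38 (-0.29, SE 0.04, adjusted p = 5.06e-06). In all, 3 of 14 tested genes rose and 3 fell in CT26, and 2 rose and 1 fell in MC38, which is 21.4% each way in CT26 and 14.3% and 7.14% in MC38, near or below the shares of all genes. Of 15 tested in E0771, 0 passed with edgeR or DESeq2, and 1 had an unadjusted p under 0.05.

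**Figure D4:**
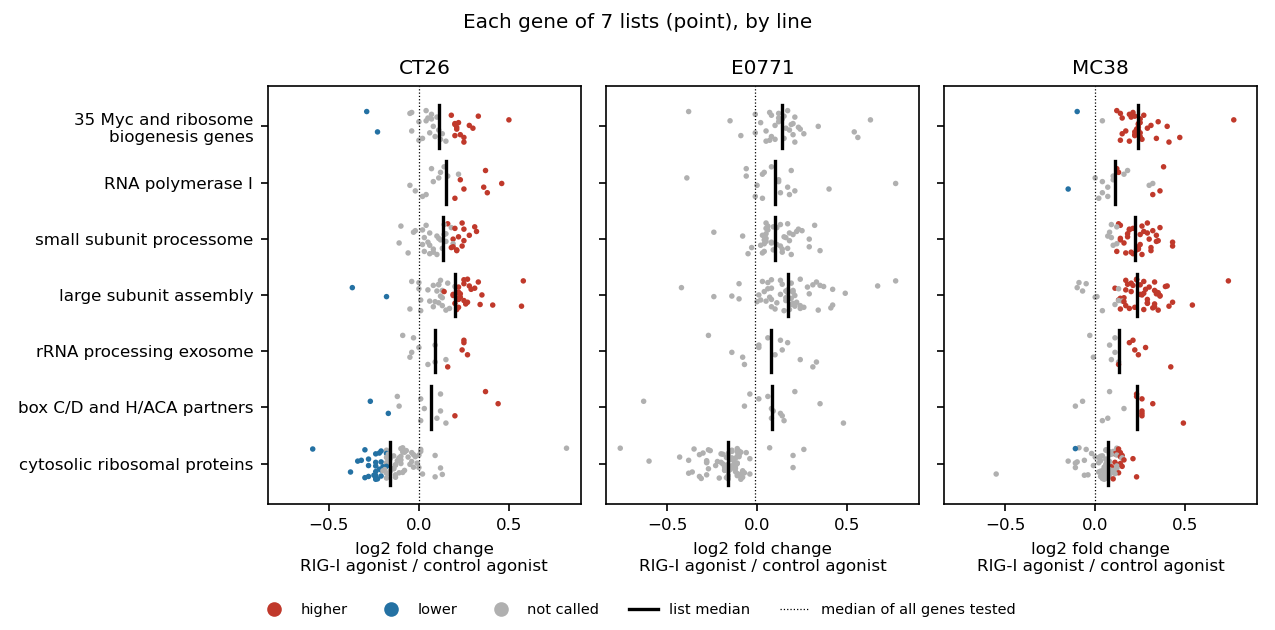
Log2 fold change, RIG-I agonist over control agonist, of each gene (point) in 7 lists for CT26, E0771 and MC38, red where called higher and blue where called lower, with the list median as a bar and the median of all genes tested as a dotted line. The 35 genes and both assembly lists lie to the right of the dotted line by their medians in every line, and the 79 ribosomal protein genes to the left in CT26 and E0771 (median -0.16 in each) but not in MC38 (0.07).

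Ribosomal protein genes, which encode the ribosome itself, did not move with the assembly factors in CT26. Of 79, 0 rose and 27 fell in CT26, 17 rose and 1 fell in MC38, and 0 passed in E0771 with edgeR, where 75 had negative estimates, 3 an unadjusted p under 0.05, and DESeq2 called 1 lower. The shares were 34.2% lower in CT26 and 21.5% higher in MC38. Of all genes tested, 18.6% were lower in CT26 and 18.9% higher in MC38. Among genes at or above the level of the lowest of the 35 these were 27.2% and 31.3%, so the MC38 share lay between both backgrounds. In MC38 1.27% of the 79 were lower, beside 16.9% of all genes and 23.6% at that level, and 65 estimates were positive. In CT26 0 had all RIG-I agonist libraries above the controls, by DESeq2 0 rose and 44 fell, and 10 estimates were positive. Of 15712 genes in all, DESeq2 called 2594 lower there. Their summed level was 60319, 62205 and 57345 CPM in CT26 with the RIG-I agonist and 60879, 69814 and 70516 CPM with the control agonist, so control replicate 1 lay among the RIG-I agonist libraries. In E0771 the sums were 54420 and 60253 CPM against 58127 and 71690 CPM, and in MC38 43775 and 40670 CPM against 40903 and 39487 CPM, so these groups overlapped too. The CT26 count fell to 9 without control replicate 2, 11 without RIG-I agonist replicate 1 and 12 without RIG-I agonist replicate 3. Of all genes, those fits called 2036 of 14319, 1803 of 14244 and 2043 of 14169 lower, so these counts were near their background. The count was 18 without control replicate 3 or RIG-I agonist replicate 2 (2831 of 14185 and 1896 of 14240 genes in all). It was 52 without control replicate 1 (2924 of 14370 genes in all). The MC38 count was 6 without control replicate 2 or RIG-I agonist replicate 1 and 43 without RIG-I agonist replicate 2. In 1 fit of all 14 libraries 16 fell in CT26 and 0 rose in MC38, where 13.5% of all genes fell and 4.26% rose. Rpl11, a ribosomal protein of the 5S particle, fell in CT26 (-0.59, SE 0.18, adjusted p = 0.0457) and rose in MC38 (0.13, SE 0.04, adjusted p = 0.0167), 1 of 7 ribosomal protein genes called in opposite directions there. Ribosomal protein genes have many near-identical pseudogene copies, so single values of this list are uncertain, and the difference between lines was not tested for it.

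**Figure D5:**
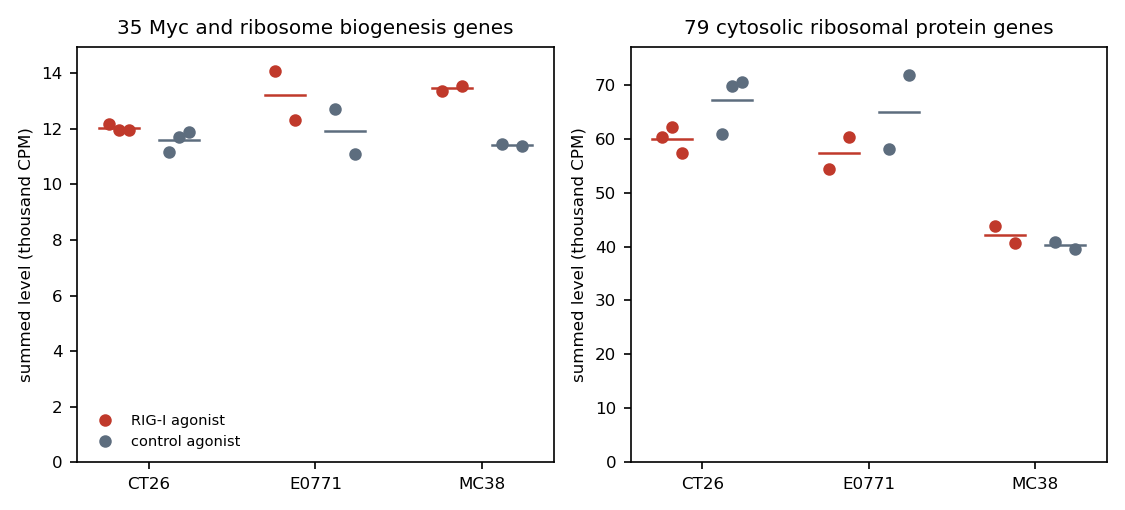
Summed level, on an axis in kilo-CPM, of the 35 genes (left) and of 79 cytosolic ribosomal protein genes (right) in each library (points, with the group mean as a line), RIG-I agonist left of control agonist. The 35 genes sum to 13360 and 13546 CPM with the RIG-I agonist in MC38, against 11442 and 11368 CPM with the control agonist, and the ribosomal protein groups overlap in every line.

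The sum over the 35 genes was 12160, 11943 and 11965 CPM in CT26 with the RIG-I agonist, against 11152, 11711 and 11894 CPM with the control agonist, and these groups did not overlap. In MC38 the gap was wider, at 13360 and 13546 CPM against 11442 and 11368 CPM. In E0771 the sums were 14073 and 12309 CPM with the RIG-I agonist and 12719 and 11078 CPM with the control agonist, and the groups overlapped. Ncl and Npm1 had the highest CPM of the 35 genes, so they weigh most in the level of the sums. In CT26 Ncl averaged 2683 against 2686 CPM and Npm1 1516 against 1555 CPM, RIG-I against control agonist. The higher sum in CT26 therefore came from other members, while in MC38 both of these genes rose.

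The number of the 35 genes called higher in CT26 was 7 without RIG-I agonist replicate 1, 7 without replicate 2 and 9 without replicate 3. Of all genes, those fits called 2060 of 14244, 2101 of 14240 and 2285 of 14169 higher. Without each control replicate the number was 10 to 15 of the 35. For control replicates 1, 2 and 3 the background was 2983 of 14370, 2232 of 14319 and 2770 of 14185 genes. In 1 fit of all 14 libraries with a shared spread, 4 of the 35 were called higher in CT26 and 4 in MC38 (in CT26 Myc, Wdr43, Nop2 and Gnl3, and in MC38 Myc, Wdr43, Rrp9 and Nop14). That fit called 10.4% of all genes higher in CT26, so 4 of 35 is near its background there, and 4.26% in MC38. Of the 35, 12 overlap another gene on the opposite strand. Besides Rrp9 with Parp3, Heatr1 overlaps Lgals8, called higher in each line (0.88 in CT26, 1.65 in E0771 and 0.65 in MC38). Other overlapping genes fell in CT26, such as Pbrm1 with Gnl3 (-0.61) and Spns2 with Mybbp1a (-0.93). Their part in the values of the 35 genes was not tested.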

How the data were processed

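Bulk RNA was sequenced from 14 libraries, as stranded poly(A)+ libraries per the labels' protocols. The authors deposited estimated counts per gene. Per the submitters' processing notes, the tools were Salmon and DESeq2 and the build GRCm38, with neither versions nor roles. Whether counting used strand is not given in the sources used here. The estimated counts were rounded to whole numbers. Each line was fitted with edgeR 4.0.16 (limma 3.58.1, R 4.3.3): TMM normalization, a low-count filter with a minimum count of 10, the robust quasi-likelihood F test, and p-values adjusted by Benjamini-Hochberg across every gene tested, with calls at an adjusted p under 0.05. Differences between lines and control-agonist levels came from 1 fit of all 14 libraries. CPM used TMM-scaled library sizes, and a standard error is the absolute log2 fold change over the square root of F. DESeq2 1.42.0, other normalizations, no filter, a replicate block and leaving out each library were the alternatives. The pipeline was tested on simulated data.

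The members and the other gene lists were chosen with earlier results of these data known. Values per library were given for Myc, for up to 6 called members with the largest log2 fold change in each direction and line (the 4 with the smallest p in E0771), and for members leading each interaction. In other lists, up to 4 called genes with the largest change per direction and line could be named. Promoter sequences are from RefSeq (GRCm38.p6).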

Additional observations from a re-analysis of the deposited data

How the results depend on the processing

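Of the 35 genes, the number called higher in CT26 was 4 in 1 fit of all 14 libraries, where 10.4% of all genes were. It was 7 to 15 when each library was left out in turn, where 2060 of 14244 to 2983 of 14370 genes were. The number of the 35 called lower there was 1 with library sizes alone, 1 in the fit of all 14 libraries and 0 to 2 when each library was left out. In MC38 the number called higher was 4 in the fit of all 14 libraries and 28 to 32 when each library was left out, and the number called lower was 0 with no low-count filter, 0 with DESeq2, 0 in the fit of all 14 libraries and 0 to 1 when each library was left out. In E0771 the number called higher was 1 with DESeq2 and 3 in the fit of all 14 libraries (Myc, Rrp9 and Nop14). There DESeq2 called 370 of 13207 genes higher and the fit of all 14 libraries 6.47% of all genes. Both counts were near those backgrounds. For the difference between CT26 and MC38, 3 genes were called with DESeq2, 9 with only the libraries of both lines, and 0 to 1 when each library was left out. For CT26 minus E0771, 1 was called with DESeq2 and 0 to 1 when each library was left out. The estimate for Ncl in CT26, near 0, was 0.02 with library sizes alone and -0.04 to 0.02 when each library was left out, and in E0771 it was -0.08 to 0.34. The causes were not tested. Counts for control-agonist levels stayed within 1.5 times of their main value under each alternative run. Libraries with the same replicate number had correlated deviations of 0.08 to 0.26 in CT26, 0.64 in E0771 (2 pairs) and -0.02 in MC38, so the numbers were not taken to pair the samples. With the replicate number as a block, 14 genes were called higher and 2 lower in CT26, 6 and 1 in E0771, and 33 and 1 in MC38. In E0771 they included Myc and Odc1 as higher (adjusted p = 3.11e-05 and 0.000167) and Cad as lower (adjusted p = 0.00188). Of all genes in CT26, E0771 and MC38, the block fit called 20%, 10.6% and 20.9% higher and 18.2%, 10.4% and 18.9% lower. The blocked interactions called 7 (CT26 minus MC38), 3 (CT26 minus E0771) and 0 (E0771 minus MC38). The share of all genes called was not counted for interactions outside the main fit. With 2 libraries per agonist, deviations from the group mean mirror each other, so the 2 pairs in E0771 give 1 correlation only. That correlation is a hint from the data and not from the design. The spread in E0771 limits what its 2 libraries per agonist can show.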

Other observations

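Of 31 translation initiation and elongation genes, 5 rose (16.1%) and 10 fell (32.3%) in CT26, close to the 16% and 27.2% of genes at or above the level of the lowest of the 35. In MC38 16 rose (51.6%) and 3 fell (9.68%), beside 31.3% and 23.6%, and 1 rose in E0771. That gene was Eif2ak2, the interferon-induced kinase PKR that halts initiation on double-stranded RNA, and it also led both other lines. With the RIG-I against the control agonist it averaged 415 against 219 CPM in CT26, 203 against 53.4 CPM in E0771 and 173 against 100.2 CPM in MC38 (log2 fold change 0.92, 1.93 and 0.80). Eef2 and Eef1a1, the elongation factors, fell in CT26 by 0.36 and 0.32 on the log2 scale, and Eif4ebp2, an inhibitor of cap-dependent initiation, fell by 0.50 in CT26 and 0.20 in MC38.

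In the list of nucleolar stress and the 5S particle, Cdkn1a, the cell-cycle inhibitor p21, rose in E0771 (149.9 CPM with the RIG-I agonist against 55.2 CPM with the control agonist, log2 fold change 1.44, SE 0.13, adjusted p = 0.0119 with edgeR). Mdm2, the ubiquitin ligase of p53, rose in CT26 (0.22) and MC38 (0.32). Among other polyamine and pyrimidine genes, 3 rose (18.8%) and 6 fell (37.5%) in CT26 and 6 rose (37.5%) and 1 fell (6.25%) in MC38. Of all genes tested, 19.8% rose and 18.6% fell in CT26, and 18.9% rose and 16.9% fell in MC38. At or above the level of the lowest ribosome-production gene, the shares were 16% and 27.2% in CT26 and 31.3% and 23.6% in MC38. The share that rose was near both backgrounds in CT26 and near the level-matched background in MC38. Of 15 such genes tested in E0771, 0 passed with edgeR or DESeq2, and 1 had an unadjusted p under 0.05. Sat1, which acetylates polyamines for export, rose in CT26 (0.57) and MC38 (0.23), and Srm, spermidine synthase, rose in MC38 to 250.1 CPM against 185 CPM with the control agonist.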
